A study of Mus musculus with 6 samples.

Results

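S100 proteins are small calcium-binding proteins, and 9 of their genes were followed in endothelial cells (ECs) of the mouse liver: S100a1, S100a4, S100a6, S100a8, S100a9, S100a10, S100a11, S100a13 and S100a16. They were chosen by name and are 9 of the 24421 gene symbols in the count table, and S100a8 and S100a9, the genes best known from neutrophils, were set against the other 7. RNA was sequenced from CD31+CD45- liver cells, sorted as ECs by flow cytometry, of wild-type (WT) C57BL/6J mice. The 3 young samples came from mice aged 10 weeks. The 3 aged samples came from mice aged 127, 131 and 136 weeks, and they are named here by age. The study used female mice, and the labels give no treatment. The methods call the samples independent but do not say whether each came from 1 mouse or a pool, so p-values measure the spread between these samples, part of which may be technical.

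An S100 protein carries a pair of calcium-binding EF-hand loops and usually works as a dimer. Calcium binding opens a surface that grips other proteins, such as the annexins, which are themselves calcium-dependent membrane-binding proteins. S100A10 is the exception, since its calcium loops are inactive and it stays bound to annexin A2. S100A8 and S100A9 pair to form calprotectin, an abundant protein of the neutrophil cytoplasm that is released during inflammation and signals through Toll-like receptor 4 and the receptor RAGE.

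All 9 genes lie on chromosome 3 in the mouse. In the mm9 build used for the deposited data, S100a1 (chr3:90314956-90318314, minus strand) and S100a13 (chr3:90318357-90328503, plus strand) stand back to back, 42 bases apart. S100a16, S100a4, S100a6, S100a8 and S100a9 follow, with S100a8 at chr3:90472993-90473956 on the plus strand and S100a9 at chr3:90496554-90499643 on the minus strand, 22597 bases further on. S100a11 (chr3:93324410-93330209) and S100a10 (chr3:93359002-93368565), both on the plus strand, form a separate pair that begins 2824766 bases beyond S100a9. No member overlapped another annotated gene in the GENCODE vM1 annotation, which matters because it is not stated whether counting used the strand.

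Promoter windows of 300 bases around the RefSeq start (GRCm38.p6, a later build than that of the data) were found for 8 of the 9 members, in 9 windows. The windows of S100a4, S100a8 and S100a9 are shown because they hold the letters TATAAA, the core of a TATA box. The motif was in 13.6% of 32851 windows of this length, searched on both strands, and in no window of the other members found. Capitals mark TATAAA, which began 31 bases before the listed start in S100a4 (chr3:90603520-90603819, plus strand), 30 bases before it in S100a8 (chr3:90668821-90669120, plus strand) and at base 1 after it in S100a9 (chr3:90695672-90695971, minus strand).
S100a4: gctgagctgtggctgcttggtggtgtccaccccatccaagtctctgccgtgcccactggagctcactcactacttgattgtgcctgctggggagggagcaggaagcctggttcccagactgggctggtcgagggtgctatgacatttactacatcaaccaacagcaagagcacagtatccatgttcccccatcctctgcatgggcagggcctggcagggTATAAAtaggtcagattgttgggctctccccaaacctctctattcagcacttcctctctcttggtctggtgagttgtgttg
S100a8: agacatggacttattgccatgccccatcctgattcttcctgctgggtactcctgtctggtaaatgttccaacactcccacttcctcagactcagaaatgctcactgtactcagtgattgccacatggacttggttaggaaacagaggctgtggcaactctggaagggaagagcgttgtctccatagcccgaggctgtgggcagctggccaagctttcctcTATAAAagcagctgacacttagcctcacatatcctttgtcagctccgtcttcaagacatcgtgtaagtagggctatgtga
S100a9: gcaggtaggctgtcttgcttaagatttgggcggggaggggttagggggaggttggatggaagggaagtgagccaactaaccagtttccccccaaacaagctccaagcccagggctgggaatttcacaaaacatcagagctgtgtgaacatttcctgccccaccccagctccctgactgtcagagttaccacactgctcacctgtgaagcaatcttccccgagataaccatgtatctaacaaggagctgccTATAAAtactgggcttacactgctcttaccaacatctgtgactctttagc

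The window of S100a11, the member with the highest median level, is shown for its GC boxes. Capitals mark GGGCGG, which stood 64, 52 and 24 bases before the start (chr3:93520246-93520545, plus strand) and which 35.7% of windows held. GGGCGG also stood 1 time in the S100a9 window, where it is not marked, and 1 time in 1 S100a16 window. The S100a11 window held 15 CpG dinucleotides against 4 in S100a8 and 2 in S100a9, and the median of all windows was 7. The windows of S100a16 held 2 and 4 CpG and that of S100a6 held 6. Neither count therefore separated S100a8 and S100a9 from the other members.
S100a11: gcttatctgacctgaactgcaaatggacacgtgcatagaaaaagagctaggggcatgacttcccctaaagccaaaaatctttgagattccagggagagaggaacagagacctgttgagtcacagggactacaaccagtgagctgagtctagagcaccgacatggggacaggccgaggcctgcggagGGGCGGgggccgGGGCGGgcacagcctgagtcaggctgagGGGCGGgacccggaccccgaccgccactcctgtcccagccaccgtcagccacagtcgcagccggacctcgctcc

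S100a13 is shown for the stretch it shares with S100a1. The whole S100a13 window is chr3:90514185-90514484 on the plus strand. Capitals mark its 204 bases (chr3:90514281-90514484) that also lie in the S100a1 window on the other strand. The listed starts had 104 bases between them. These windows held 14 CpG in S100a13 and 11 in S100a1, and neither held TATAAA or GGGCGG. A further 7 motifs were searched, and a match or its absence describes these letters and not the binding of a factor.
S100a13: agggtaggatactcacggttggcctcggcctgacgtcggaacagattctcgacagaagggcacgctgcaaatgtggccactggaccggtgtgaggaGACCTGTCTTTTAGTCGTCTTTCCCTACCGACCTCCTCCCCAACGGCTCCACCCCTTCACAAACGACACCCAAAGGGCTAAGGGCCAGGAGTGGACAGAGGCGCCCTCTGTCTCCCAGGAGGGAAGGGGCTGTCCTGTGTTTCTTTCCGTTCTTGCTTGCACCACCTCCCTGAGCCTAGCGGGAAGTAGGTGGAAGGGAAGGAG

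The levels of the members spanned a wide range. Levels are given as FPKM, which is scaled for gene length and so can be set side by side between genes. S100a11, which binds annexin A1, and S100a10 led with medians of 463.1 and 455.7 FPKM over the 6 samples, higher than 99.4% and 99.3% of symbols. S100a16 had a median of 317.2, S100a1 of 288.6 and S100a13, which takes part in the export of fibroblast growth factor 1, of 149.6. S100a6, known as calcyclin, had a median of 42.0. S100a8 had a median of 6.16, S100a9 of 2.92 and S100a4, known as fibroblast-specific protein 1 and also present in leukocytes, of 2.31 FPKM.

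The order was not sharp at every step. The 6-sample range of each member overlapped that of its neighbour. S100a11 was above S100a10 in 1 of the 6 samples, S100a16 was above S100a1 in 5, and S100a9 was above S100a4 in 4. The 5 other neighbouring pairs kept their order in 6 of 6 samples. The low group was therefore not S100a8 and S100a9 alone, because S100a4 lay below them by its median. The order near the top also depended on the scaling for length. By median CPM per kb of merged exon S100a11 stayed 1st at 279.3. S100a1 came 2nd at 175.8, S100a10 3rd at 174.05 and S100a16 4th at 174.03.

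The sorted cells carried Pecam1, which encodes CD31, the protein used for the sort, in each sample. Its level was 1369 to 1589 CPM (counts scaled to library size by TMM) in young samples and 1366 to 1635 in aged samples. The 10 pan-endothelial markers, Pecam1 among them, summed to 15160 to 16470 CPM in young samples. Their sum was 12320, 13930 and 10900 CPM at 127, 131 and 136 weeks. Of the 10, 7 had a fitted log2 fold change below 0, as had 7150 of all 14612 genes tested. Without overlap, 4 were lower in aged samples (Kdr, Tek, Eng and Robo4) and 0 higher, against 8.33% and 9.62% of all genes tested. Total counts were 23001556 to 31651817 per sample. Lars2 and Rn45s took 1.29% of the counts of young replicate 3 and 0.960% of those of the 127-week sample, against 4.68% to 5.53% in the other 4, so the libraries fell into 2 groups. Young replicate 3 was also the lowest young sample for 9 of 9 members in CPM, and 41.4% of all genes tested were lowest there. Values within each group of libraries are given below for S100a6, S100a9, S100a13 and S100a16. These were the 4 members with an unadjusted edgeR p below 0.05 when a term for the library groups was fitted. The part of this split in the results was not tested.

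The question of the comparison was how ageing changes liver ECs. None of the 9 members passed the threshold, an adjusted p below 0.05 with a log2 fold change beyond 1 in the quasi-likelihood test of edgeR with Benjamini-Hochberg adjustment over 14612 genes. No gene of the whole table did (0%), although 1847 genes (12.6%) had an unadjusted p below 0.05. DESeq2 called 471 genes (3.22%), among them S100a9, and limma-voom called 0. The fitted log2 fold change, aged minus young, was above 0 for 5 members (S100a4, S100a6, S100a8, S100a9 and S100a11) and below 0 for 4 (S100a1, S100a10, S100a13 and S100a16), with a median of 0.44 against 0.0098 over all genes tested. The 5 members with a value above 0 were the 5 that were highest in the 136-week sample, as were 25.7% of all genes. S100a9 was the 1 member with an unadjusted edgeR p below 0.05, on the higher side, where 8.32% of all genes were, against 4.32% on the lower side.

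**Figure D1:**
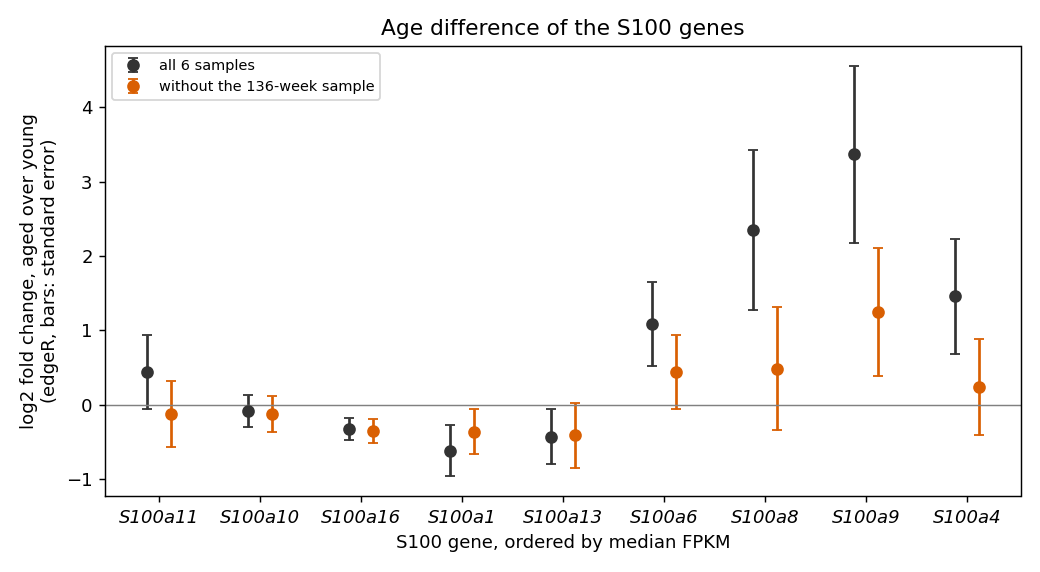
Fitted log2 fold change (aged minus young, edgeR) of each member with its standard error, beside the value without the 136-week sample. S100a9 stands at 3.37 and falls to 1.25 without that sample, while S100a16 moves from -0.32 to -0.35.

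Along chromosome 3, S100a1, S100a13 and S100a16 at the start of the cluster had values below 0, and S100a4, S100a6, S100a8 and S100a9 further along had values above 0. S100a11 and S100a10, in the separate pair, had values of 0.44 and -0.081. This order is a description, since neighbouring genes are not replicates.

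**Figure D2:**
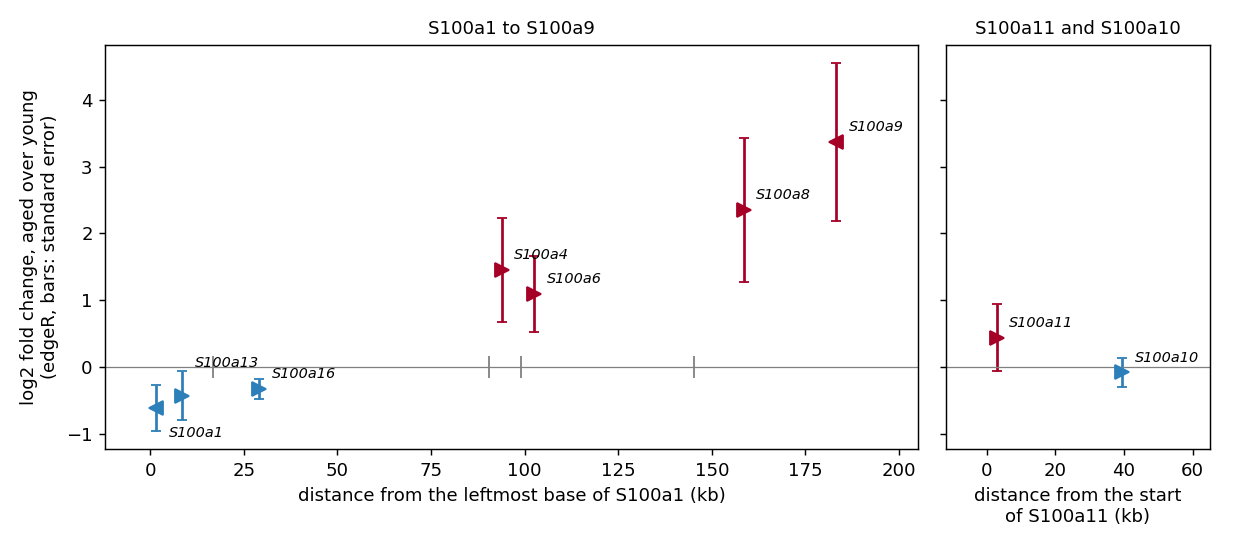
Position of the S100 genes along mouse chromosome 3 as distance in kb from the leftmost base of S100a1, with the fitted log2 fold change (aged over young, edgeR) of each member and its standard error as bars. Triangles point along the strand, red is above 0 and blue below 0, and grey ticks are other S100 genes. The S100a11 and S100a10 pair stands apart from the other 7 members.

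S100a9 and S100a8, which together form calprotectin, had the highest fitted fold changes of the 9, and the 136-week sample carried most of the difference in both. The S100a9 level was 2.86, 1.79 and 0.404 FPKM in the young samples and 4.97, 2.97 and 43.6 FPKM at 127, 131 and 136 weeks. The aged samples lay above the young ones without overlap, but the 131-week sample did so by a narrow margin, and both it and young replicate 1 had 25 counts. Of all genes tested, 9.62% were higher in aged samples without overlap. The fitted log2 fold change of S100a9 was 3.37 (SE 1.18, edgeR adjusted p = 0.332). Without the 136-week sample it was 1.25 (SE 0.86, edgeR adjusted p = 0.826). The plain difference of mean log2 CPM was 2.34 among the 4 libraries with more Lars2 and Rn45s and 3.68 between the other 2, which are 1 aged library and 1 young library with 4 S100a9 counts. DESeq2 gave S100a9 an adjusted p of 0.0312.

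The S100a8 level was 7.60, 4.73 and 1.57 FPKM in the young samples and 9.60, 3.45 and 57.4 FPKM in the aged ones, in order of age. The 136-week sample was far above the other 5, whereas the 131-week sample was below young replicates 1 and 2, so the groups overlapped. The counts behind these values were small, at 9 to 39 in young samples and 52, 17 and 271 in aged samples. For S100a8 the fitted log2 fold change was 2.35 (SE 1.07, edgeR adjusted p = 0.427), and without the 136-week sample it was 0.49 (SE 0.83, edgeR adjusted p = 0.955). In CPM the 136-week sample was 11.1 times the mean of the other aged samples for S100a9 and 8.99 times for S100a8.

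**Figure D3:**
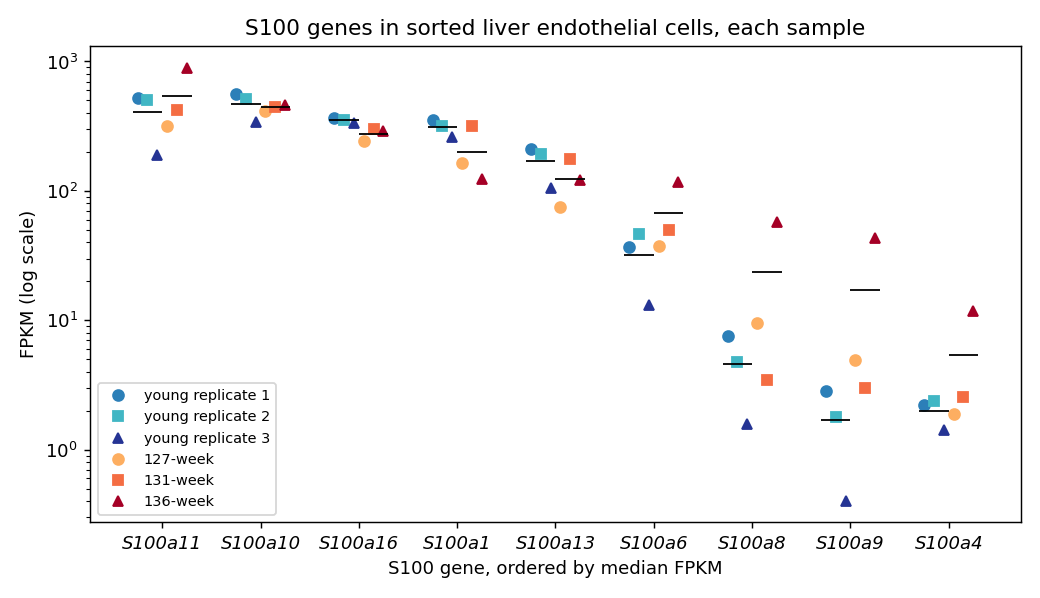
FPKM of the 9 members in each of the 6 samples, on a log axis, with a black line at the mean of each group of 3. S100a8 and S100a9 reach 57.4 and 43.6 FPKM in the 136-week sample, and S100a10 and S100a16 stay within narrow ranges.

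The share of S100a9 among the reads of the calprotectin genes ranged from 30.8% to 59.5% over the 6 samples. Of the reads assigned to either gene, S100a9 took 39.1% (95% Clopper-Pearson interval 27.1% to 52.1%, 25 of 64 reads), 39.4% (22.9% to 57.9%, 13 of 33) and 30.8% (9.09% to 61.4%, 4 of 13) in the young samples. It took 47.5% (37.3% to 57.8%, 47 of 99) at 127 weeks, 59.5% (43.3% to 74.4%, 25 of 42) at 131 weeks and 56.6% (52.6% to 60.5%, 353 of 624) at 136 weeks. The 3 aged shares were above the 3 young shares, but their intervals overlapped, except those of young replicate 1 and the 136-week sample. The intervals cover counting error only.

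Neutrophil markers moved in the same sample. Their summed level was 38.7 to 58.8 CPM in young samples and 135.0, 39.6 and 227.5 CPM at 127, 131 and 136 weeks, of which Lcn2, encoding lipocalin 2, made up the larger part. Lcn2 alone was 34.1, 50.4 and 33.5 CPM in young samples and 119.7, 32.1 and 170.2 CPM in aged ones. Without Lcn2, the other 19 markers of the list summed to 5.17 to 10.9 CPM in young samples and 15.3, 7.51 and 57.2 CPM in aged samples. Of 16 neutrophil markers tested, 15 had a fitted log2 fold change above 0, as had 7462 of all 14612 genes tested. Of the 15, 4 (Lcn2, Retnlg, Fpr2 and Itgam) had an unadjusted edgeR p below 0.05, against 8.32% of all genes on that side. The 136-week sample was the highest for 13 of the 16, as for 25.7% of all genes. Elane, Prtn3, Camp, Ngp, Mmp8, Retnlg and Fpr2 reached the filter of 0.5 CPM in that sample alone. Their being highest there was therefore fixed by the filter. Fpr1 reached it in aged samples alone. These markers entered the test only through aged samples, which favoured a fold change above 0. The count of 15 and, through Retnlg and Fpr2, the count of 4 partly follow from the filter. Padi4 was the marker below 0, at -0.38. Cxcr2 was at 3.35, 3.02 and 1.23 CPM in young samples and 1.58, 4.28 and 2.92 CPM in aged ones, in order of age. None of the 20 markers in the table was at 0 in all samples, and Ly6g was not in it.

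The granule genes separated the aged samples further. Ngp, a neutrophil granule gene named here after its values were seen, as was Camp, had 10, 4 and 1 counts in the young samples and 2, 1 and 262 counts in the aged ones, in order of age. Camp, encoding the antimicrobial peptide cathelicidin, had 2, 0 and 0 counts against 0, 2 and 51. Together, 8 granule genes of the list (Mpo, Elane, Prtn3, Ctsg, Camp, Ltf, Ngp and Mmp8) had 17 to 105 counts in young samples. They had 26, 30 and 671 counts in aged samples. This choice leaves out Lcn2 and Mmp9, and Ltf gave 89 of the 105 counts in young replicate 1. The 127-week sample had 47 S100a9 counts, more than each young sample, beside a sum of these 8 genes within the young range. Its sum over the 19 neutrophil markers without Lcn2 was 15.3 CPM, above the young range of 5.17 to 10.9 CPM. Lcn2 was also above its young range at 127 weeks.

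Markers of the other leukocytes were high in the same sample although the sort excluded CD45+ cells. Ptprc, which encodes CD45, had 1.56, 1.17 and 1.70 CPM in young samples and 7.57, 1.28 and 25.6 CPM in aged ones. Monocyte and macrophage markers summed to 65.2 to 101.2 CPM in young samples and 233.1, 69.8 and 616.8 CPM at 127, 131 and 136 weeks. T and NK cell markers summed to 8.78 to 12.2 CPM against 26.6, 10.4 and 62.6 CPM, and B and plasma cell markers to 1.17 to 4.17 CPM against 3.30, 1.09 and 21.6 CPM. Platelet and megakaryocyte markers summed to 29.3 to 35.4 CPM in young samples and 24.6, 33.5 and 29.3 CPM in aged samples, so they were not raised in the 136-week sample. The 131-week sample, in which S100a8 was within the young range, had leukocyte sums at or near the young range. In bulk samples fewer cells of a type and less RNA per cell cannot be told apart, and the part of these cells in the S100a8 and S100a9 levels was not tested.

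**Figure D4:**
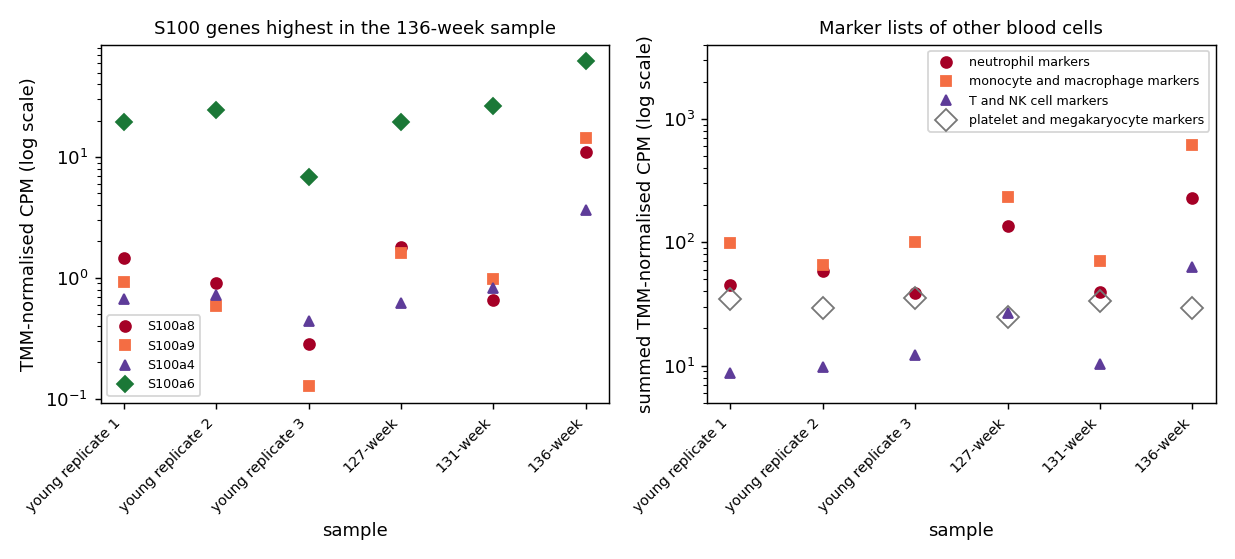
S100a4, S100a6, S100a8 and S100a9 (left, TMM-normalised CPM) and summed TMM-normalised CPM of 4 marker lists (right) in each of the 6 samples, on log axes. The 136-week sample is highest for the 4 genes and for the neutrophil, monocyte and T cell lists, and platelet markers lie between 24.6 and 35.4 CPM.

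S100a4, S100a6 and S100a11 shared the high 136-week value at lower fold changes. S100a4 was at 2.22, 2.39 and 1.42 FPKM in the young samples and at 1.88, 2.57 and 11.8 FPKM in the aged ones, in order of age. The 127- and 131-week samples were within or next to the young range, and the counts were 14 to 18 in young samples and 18, 21 and 89 in aged samples. Its fitted log2 fold change of 1.46 (SE 0.78, edgeR adjusted p = 0.501) was 0.24 without the 136-week sample.

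S100a6 was at 36.9, 46.6 and 13.2 FPKM in the young samples and at 37.4, 49.9 and 117.0 FPKM in the aged ones. Young replicate 3 was the low sample and the 136-week sample the high one, and the other 4 lay close together. The fitted log2 fold change of S100a6 was 1.09 (SE 0.57, edgeR adjusted p = 0.487), and it was 0.44 without the 136-week sample. Among the libraries with more Lars2 and Rn45s, S100a6 was at 19.6 and 24.7 CPM in young and 26.7 and 62.4 CPM in aged samples. Between the others, 1 library against 1, it was at 6.85 and 19.5 CPM. With a term for the library groups its log2 fold change was 1.17 (SE 0.34, edgeR adjusted p = 0.242). S100a11 was at 520.7, 502.4 and 189.5 FPKM in the young samples and at 316.8, 423.8 and 897.1 FPKM in the aged ones. The 127- and 131-week samples were below young replicates 1 and 2. Its fitted log2 fold change of 0.44 (SE 0.50, edgeR adjusted p = 0.779) turned to -0.13 without the 136-week sample, so no direction with age held for S100a11.

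Markers of stellate and mesothelial cells, mesenchymal cells of the liver, summed to 164.7 to 526.3 CPM in young samples and 481.4, 267.0 and 768.8 CPM in aged ones, in order of age. Reln, encoding reelin, carried the larger part of the sum at 127 and 136 weeks, and without Reln, a sum added after the values were seen, the aged samples were at 130.2, 158.0 and 273.2 CPM, inside the young range of 94.8 to 371.3 CPM. Of 13 of these markers tested, 0 had an unadjusted edgeR p below 0.05 on the higher side and 3 on the lower side. The shares of all genes tested were 8.32% and 4.32%. The 3 were Lrat, Msln and Upk3b, with log2 fold changes of -2.19, -2.001 and -2.30. Cholangiocyte markers, of the bile duct epithelium, summed to 89.5 to 109.3 CPM in young samples and 207.0, 196.3 and 248.6 CPM in aged samples. The part of these cells in the levels of S100a4, S100a6 and S100a11 was not tested.

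S100a16, S100a1 and S100a13 were lower in the aged samples by their means, by less than 1 log2 unit. S100a16 was the steadiest of the 9, with the highest sample 1.49 times the lowest. It was at 363.3, 355.2 and 334.3 FPKM in the young samples and at 244.6, 300.1 and 288.0 FPKM in the aged ones. The aged samples were below the young ones without overlap, as were 8.33% of all genes tested in CPM. S100a16 had a fitted log2 fold change of -0.32 (SE 0.15, edgeR adjusted p = 0.428). The plain difference of mean log2 CPM was -0.28 among the 4 libraries with more Lars2 and Rn45s and -0.42 between the other 2, 1 library against 1. Without the 136-week sample the fitted log2 fold change of S100a16 was -0.35 (edgeR adjusted p = 0.701).

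S100a1, best known from heart muscle, where it acts on calcium cycling, was at 350.4, 319.9 and 261.9 FPKM in the young samples. It was at 164.1, 315.4 and 124.0 FPKM at 127, 131 and 136 weeks. The 131-week sample was within the young range, and the other aged samples were below it. For S100a1 the fitted log2 fold change was -0.62 (SE 0.34, edgeR adjusted p = 0.516). Without the 131-week sample it was -1.10 (SE 0.21, edgeR adjusted p = 0.0870), and without the 136-week sample it was -0.36.

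S100a13, the gene that stands back to back with S100a1, was at 209.2, 192.9 and 105.7 FPKM in the young samples and at 74.5, 177.8 and 121.5 FPKM in the aged ones. Young replicate 3 lay below the 131- and 136-week samples, so the groups overlapped. Its fitted log2 fold change was -0.43 (SE 0.37, edgeR adjusted p = 0.695), and it was -0.16 without the 127-week sample and -0.78 without the 131-week sample. Among the libraries with more Lars2 and Rn45s, S100a13 was at 110.7 and 101.9 CPM in young and 94.7 and 64.6 CPM in aged samples. Between the others, 1 library against 1, it was at 55.3 and 39.6 CPM. With a term for the library groups its log2 fold change was -0.44 (SE 0.16, edgeR adjusted p = 0.275). The ratio of S100a1 to S100a13 in FPKM was 1.68, 1.66 and 2.48 in young samples and 2.201, 1.77 and 1.02 in aged samples, with the lowest ratio in the 136-week sample.

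Sinusoidal endothelial markers, of the fenestrated ECs of the liver, were lower in the aged samples by their sum. The sum was lowest in the 136- and 127-week samples, where S100a1 was also lowest. Their summed level was 15670 to 17230 CPM in young samples and 6473, 10930 and 6091 CPM at 127, 131 and 136 weeks. Of 10 tested, 9 had a fitted log2 fold change below 0, as had 7150 of all 14612 genes tested, and the median was -1.09. Of the 10, 8 were lower at an unadjusted edgeR p below 0.05, against 4.32% of all genes. Lyve1 was the marker above 0, at 0.58. It was at 390.7, 536.8 and 670.5 CPM in young samples and 660.6, 223.4 and 1506 CPM in aged ones, in order of age. Large-vessel endothelial markers summed to 8758 to 12050 CPM in young samples and 12970, 12430 and 13270 CPM in aged samples. The pan-endothelial markers had a median log2 fold change of -0.19. The part of a shift between these ECs in the S100 levels was not tested.

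S100a10, the annexin A2 partner, differed between the groups by less than the spread among samples. It was at 559.8, 509.2 and 342.1 FPKM in the young samples and at 414.7, 447.1 and 464.4 FPKM in the aged ones. The aged samples lay inside the young range. The fitted log2 fold change of S100a10 was -0.081 (SE 0.21, edgeR adjusted p = 0.928), and it turned to 0.072 without young replicate 1. The 136-week sample was 1.09 times the mean of the other aged samples in CPM, against 8.99 for S100a8.

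The contrast between the neutrophil-type pair and the other 7 members can be put as a ratio. S100a8 and S100a9 together made up 0.510%, 0.337% and 0.158% of the summed FPKM of the 9 members in the young samples. They made up 1.15%, 0.373% and 4.75% in the aged samples, in order of age. The log2 ratio of the pair to the other 7 was -8.37 ± 0.86 (SD, n = 3) in young and -6.27 ± 1.87 (SD, n = 3) in aged samples, a difference of 2.103. The 131-week ratio was within the young range. Leaving out 1 sample at a time moved the difference between 1.13 and 3.00, and no test was made of this score.

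The same comparison was read in the proteins that S100 proteins bind. Of 10 annexins tested, 9 had a fitted log2 fold change above 0, as had 7462 of all 14612 genes tested, and the median was 0.27. Without overlap, 3 were higher in aged samples (Anxa1, Anxa4 and Anxa13) and 0 lower, against 9.62% and 8.33% of all genes. Anxa1, the partner of S100A11 and an inhibitor of leukocyte adhesion, was at 69.4, 62.5 and 51.4 CPM in young samples and 138.8, 95.2 and 109.3 CPM in aged samples, without overlap. Its log2 fold change was 0.91 (SE 0.19, edgeR adjusted p = 0.209). Anxa2, the partner of S100A10, had a log2 fold change of 0.22 (edgeR adjusted p = 0.737) at a mean of 418.2 FPKM. Anxa5 was higher in level than Anxa2, at a mean of 502.4 FPKM, and had a log2 fold change of -0.14. The 13 tested genes of the list of other binding partners had a median of -0.093. None had an unadjusted edgeR p below 0.05, against 12.6% of all genes tested.

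Among 13 genes for receptors reported to bind secreted S100 proteins, 3 had an unadjusted edgeR p below 0.05, as had 12.6% of all genes. Without overlap, 1 of the 13 was higher and 1 lower, against 9.62% and 8.33% of all genes tested. Ager, which encodes RAGE, was at 1.303, 1.40 and 0.852 CPM in young samples and 2.65, 1.05 and 13.6 CPM in aged ones, with a log2 fold change of 2.28 (SE 0.89, edgeR adjusted p = 0.368). The 136-week sample was again the high one, and the groups overlapped. Tlr4, the receptor of calprotectin, was lower without overlap, at 45.2, 54.8 and 40.2 CPM in young samples and 25.9, 36.2 and 33.2 CPM in aged samples (log2 fold change -0.56, SE 0.19, edgeR adjusted p = 0.325). Sdc4, encoding the proteoglycan syndecan 4, was higher without overlap, at 37.1, 43.4 and 29.5 CPM in young and 47.1, 64.2 and 92.6 CPM in aged samples (log2 fold change 0.89, SE 0.27, edgeR adjusted p = 0.284). The receptors with the highest levels were Cd36, Bsg, Ly96 and Mcam, with log2 fold changes of -0.22, -0.12, -0.42 and 0.16.

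Of 8 other S100 genes in the table, S100g alone reached the filter on low counts. S100a2, S100a3 and S100a5 had 0 counts in the 6 samples, although S100a3 and S100a5 lie between S100a16 and S100a6, which were expressed. A count of 0 allows up to 0.0948 to 0.130 CPM per sample, for counting error only. S100a14 had 2 to 4 counts in young and 6 to 10 in aged samples, and S100b had 3 to 10 counts in both groups. S100g, encoding the intestinal calcium-binding protein calbindin-D9k, had 27, 0 and 0 counts in young and 20, 35 and 2 in aged samples, with a log2 fold change of 1.07 (SE 1.64, edgeR adjusted p = 0.855). It overlaps Ctps2 on the opposite strand, so its reads are uncertain.

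The genes whose 6-sample profile was most like that of S100a8 were named from 14611 other genes tested, by the root-mean-square difference of centred log2(CPM + 1) values. They were Ager at 0.189, Sema3a at 0.195, Prrx2 at 0.205, Cd53 at 0.217 and Dock2 at 0.242. S100a9 came 7th in that list at 0.260. For S100a9 they were Sema3a at 0.219, Cd53 at 0.226, Gata3 at 0.227, S100a8 at 0.260 and Fendrr at 0.282. For S100a11, the member with the highest mean FPKM, they were Efna5 at 0.164, Rgs4 at 0.170, Etnk2 at 0.171, Gpsm3 at 0.178 and Ptrf at 0.179. S100a6 was the nearest other member to S100a11, at 0.323. The points share their libraries and depth, so this likeness is a description.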

How the data were processed

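RNA of sorted CD31+CD45- liver ECs was sequenced in 75-base single-end mode. The authors called bases with CASAVA 1.8.2, mapped reads to mm9 with TopHat2 2.1.0 and made FPKM values with Cuffnorm 2.2.1, as the submitters' processing notes and the study's methods give them. The authors deposited whole-number counts for 24421 symbols, without normalization, and FPKM for 24346 symbols. The program, annotation and strand setting of the counting are not given in the sources used here. Genes reaching 0.5 CPM in 1 sample or more (14612 genes) were kept and normalized by TMM. Aged and young samples were compared with the quasi-likelihood test of edgeR 4.0.16 (R 4.3.3). Adjustment, by Benjamini-Hochberg, was over all genes tested. Marker sums are TMM-normalised CPM over all genes of a list in the table. A gene was called past a log2 fold change of 1 in either direction at an adjusted p below 0.05. Alternatives used DESeq2 1.42.0, limma 3.58.1 on log2(FPKM + 1) and log2(FPKM + 0.1), other scalings and filters, a term for the library groups and leaving out each sample. Depth was 23001556 to 31651817 counts per sample, so that 3 counts were at most 0.130 CPM.

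The members and the gene lists were chosen with earlier results of these data known. All 9 members were named, and of each list the genes with an unadjusted edgeR p below 0.05 and the genes with the highest mean FPKM were the pool from which names were taken. The sums without Lcn2, Reln or Arhgdib and over 8 granule genes were added after the values were seen. Positions came from GENCODE vM1 on mm9, and promoter windows from RefSeq on GRCm38.p6. The library groups were split at a Lars2 and Rn45s share of 3%.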

Additional observations from a re-analysis of the deposited data

How the results depend on the processing

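The signs of the fitted fold changes held under the alternatives run for 7 of the 9 members, and the exceptions were S100a10 and S100a11. Leaving out 1 sample gave S100a10 between -0.28 and 0.072, above 0 without young replicate 1, and S100a11 between -0.13 and 0.73, below 0 without the 136-week sample. No member passed the threshold except S100a9 with DESeq2 (1 member). Without the 131-week sample 1 gene of the whole table was called higher, so leaving out 1 sample gave 0 to 1 genes called higher and 0 called lower. Over all genes, DESeq2 called 392 higher and 79 lower, no filter on low counts 3 and 1, limma on log2(FPKM + 0.1) 1 and 1, and the term for the library groups 1 and 1. Members with an unadjusted p below 0.05 numbered 0 to 4. The value of 4 came with DESeq2 and with the term for the library groups. In these settings 2172 and 2446 of all 14612 genes had an unadjusted p below 0.05, against 1847 in the main fit. Genes of the whole table past a log2 fold change of 1 at an unadjusted p below 0.05 numbered 793 higher and 174 lower, and 245 to 1123 and 93 to 285 under the alternatives. S100a4 and S100a9 dropped out when 1 CPM was required in 3 samples. With CPM per kb in place of FPKM, 3 members changed rank by level (S100a1, S100a10 and S100a16). No paired analysis was possible because the aged samples carry no replicate numbers in the labels. With 3 samples a group and 4 to 39 counts of S100a8 and S100a9 in young samples, depth limits both genes.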

Other observations

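Tchh, which encodes trichohyalin, a structural protein of hair follicles, was the 1 of 5 tested genes within 100 kb of a member with an unadjusted edgeR p below 0.05. It had 7, 2 and 20 counts in the young samples and 225, 117 and 128 counts in the aged ones, without overlap. Its log2 fold change was 4.09 (SE 0.66, edgeR adjusted p = 0.181), and unlike S100a8 and S100a9 it was not highest in the 136-week sample.

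Markers of other cells that the sort could hold were also counted. Of 9 hepatocyte markers tested, 9 had a log2 fold change below 0, as had 7150 of all 14612 genes tested. They summed to 103.9 to 151.6 CPM in young and 63.2 to 87.2 CPM in aged samples. Pan-leukocyte markers summed to 336.2 to 370.6 CPM in young and 245.9 to 384.7 CPM in aged samples. Without Arhgdib, a sum added after the values were seen, they were 14.9 to 24.9 CPM in young samples and 51.0, 16.5 and 196.7 CPM at 127, 131 and 136 weeks. Of 9 erythroid markers, 6 haemoglobin genes had 0 counts in the 6 samples of the count table. The FPKM table lists the same RNA well above 0, with Hba-a1 at 50.4 to 224.3 FPKM and Hbb-b1 at 25.6 to 114.3 FPKM, so the count table cannot be read for haemoglobin.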
